A study of Homo sapiens with 20 samples.

Results

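The comparison described here sets WM164 cells that overexpress NRAS Q61K against WM164 cells that overexpress GFP. Its members are the deposited H3K4me3 peak lists whose titles name these cells, 2 for NRAS Q61K and 2 for GFP, out of 20 samples in the series, 10 of which have a peak list. The peaks of the 4 lists on the autosomes and X were joined into regions wherever they lay within 1000 bp of each other, which gave 29957 regions, and 17026 of these held a peak in all 4 lists. The members were chosen by their titles and not by a measured value.

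WM164 is a human melanoma line with a mutant BRAF kinase, and it is the only cell line of the series. NRAS Q61K is an activated form of the small GTPase NRAS, and GFP is a fluorescent protein that serves as the control for carrying a transgene. The labels give no drug treatment for either group, and no source used here gives the vector, its promoter, the level of the transgene, the time since its introduction or the number of clones. Parental WM164 cells kept in DMSO for the last 3 days before sampling, also 2 libraries, are cited where they help to place a value. Their lists held 29258 and 30065 peaks, fewer than those of either group, and the part of this in parental values was not tested. The drug-exposed cells (50 nM dabrafenib, 45 days for colonies and over 90 days for resistant cells) are cited only for whether a region held a peak.

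NRAS passes signals from receptor kinases to the RAF, MEK and ERK kinases. Activated ERK induces its own brakes, among them the DUSP phosphatases and the SPRY and SPRED proteins, and in melanoma strong ERK signalling is known for feedback, for senescence and for shifts between a melanocytic and a dedifferentiated state. H3K4me3 is the trimethylated lysine 4 of histone H3. It sits around the start sites of active genes, and long stretches of it are known from genes that define a cell type.

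The 2 groups had similar amounts of marked sequence. The NRAS Q61K lists held 40648 and 37649 peaks over 48.5 and 44.6 Mb, and the GFP lists held 41806 and 45376 peaks over 46.8 and 46.7 Mb. The number of peaks averaged 39149 ± 2121 in NRAS Q61K and 43591 ± 2524 in GFP (SD, n = 2 each), and with 2 against 2 an exact permutation test cannot give a p below 0.33. The overlap of covered bases (Jaccard index, shared over total) was 0.810 between the NRAS Q61K lists and 0.790 between the GFP lists, against 0.760 to 0.780 across the groups. The lists carry no read counts, so depth is not given by them.

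At the NRAS gene itself, the 2 NRAS Q61K libraries differed from the others over exons. NRAS Q61K 1 had short peaks over the third exon (340 bp, chr1:115256345-115256684) and the fourth exon (260 bp, chr1:115252155-115252414). NRAS Q61K 2 had peaks over the same exons (344 bp and 317 bp) and over the coding part of the fifth exon (165 bp, chr1:115251183-115251347). No GFP or parental list had a peak inside the gene away from its start, while 1 colony list had one reaching over the third exon (564 bp). All positions of peaks are in GRCh37. Exon peaks in both libraries were thus found in the group labelled with the NRAS transgene, and in a peak list reads from a transgene cannot be told apart from those of the endogenous exons. Because the exon peak lies near the promoter, the NRAS promoter region covered 2883 and 2762 bp in NRAS Q61K against 2294 and 2372 bp in GFP. That difference did not pass the test across all regions (limma, log2 change 0.28 ± 0.08 SE, adjusted p = 0.1534).

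**Figure D1:**
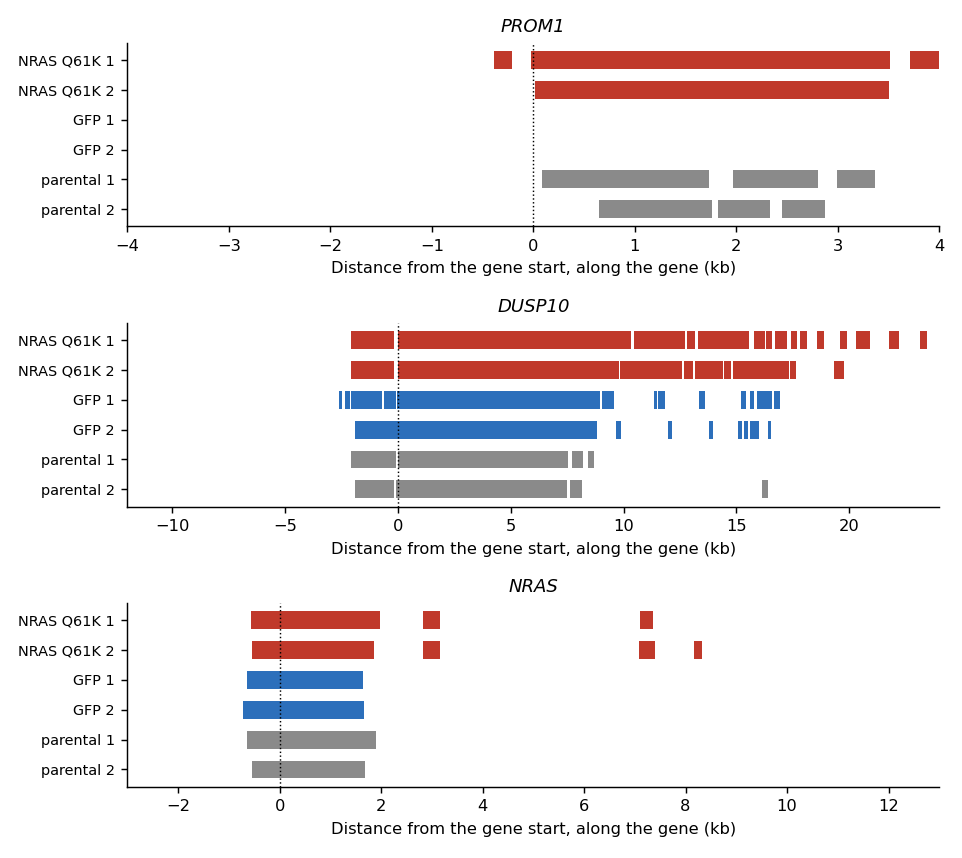
Peaks of each library (bars) along 3 genes, by distance from the gene start in kb in the direction of the gene, with NRAS Q61K in red, GFP in blue and parental in grey. The PROM1 start has peaks in the NRAS Q61K and parental lists and none in GFP, and the short peaks over NRAS exons are present in the NRAS Q61K lists. NRAS Q61K peaks cover more of the DUSP10 domain. Beyond the plotted range GFP also has peaks there, up to 29.2 kb from the start in GFP 1 and 28.2 kb in GFP 2.

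More regions were present in NRAS Q61K and absent from GFP than the reverse, and those present in NRAS Q61K were larger. A region is called gained where both NRAS Q61K lists and neither GFP list have a peak, and lost in the reverse case. Of 29957 regions, 957 were gained (3.19%) and 593 were lost (1.98%). In gained regions the mean of the 2 libraries had a median of 284.5 bp under peaks and reached 1000 bp in 37 regions (3.87%). In lost regions the median was 229.5 bp, and 5 regions (0.843%) reached 1000 bp.

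Most of these regions were weak. The median −log10 q of the authors' peaks was 5.45 in gained regions and 4.72 in lost regions, while regions found in all 4 lists had medians of 48.9 in NRAS Q61K and 46.4 in GFP. Requiring a −log10 q of 10 or more in both libraries that have the peak left 45 gained and 4 lost regions. When only peaks that overlap or touch were merged, 1702 were gained and 1849 lost, so the excess of gained regions did not hold under that merging. With GFP 1 left out, 1514 were gained and 4235 lost, and with GFP 2 left out, 1529 were gained and 1784 lost, where a lost region needs only 1 GFP peak by construction. These are counts of presence without a test.

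**Figure D2:**
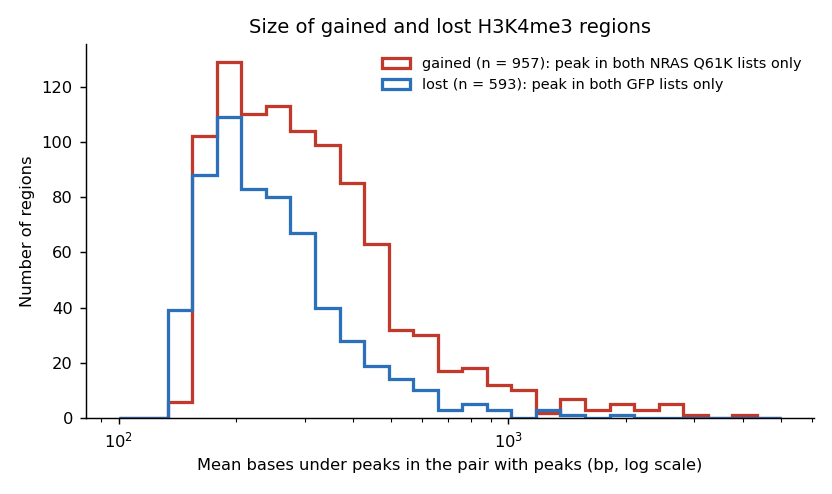
Number of regions by mean bases under peaks in the pair of libraries that has the peaks (log axis, bp), for 957 gained regions (red) and 593 lost regions (blue). Both groups peak near the shortest peaks that were called, and the gained regions have a longer tail above 1000 bp.

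Several of the larger gained regions lay at gene starts. Among the 12 gained regions with most bases outside centromeric and heterochromatic bands, 6 lay at the start of a gene, 4 lay inside a gene, and 2 had no gene placed. Promoter sequences were taken from RefSeq (GRCh38.p14, 250 bases before to 50 after the start) for genes at changed regions that have a single entry there. Those of 3 genes whose starts were marked in NRAS Q61K and unmarked in both GFP libraries are shown first, then CEACAM1, so that the bases at these starts can be read beside their values. Capitals mark a match to CATGTG, the M-box bound by the melanocyte factor MITF, on either strand.
OLFML3: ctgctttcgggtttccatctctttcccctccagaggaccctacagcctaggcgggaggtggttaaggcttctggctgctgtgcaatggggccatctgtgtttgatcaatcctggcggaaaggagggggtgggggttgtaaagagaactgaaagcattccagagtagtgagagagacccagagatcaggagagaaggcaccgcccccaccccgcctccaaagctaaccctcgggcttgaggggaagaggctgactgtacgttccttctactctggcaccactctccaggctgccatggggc
VAT1L: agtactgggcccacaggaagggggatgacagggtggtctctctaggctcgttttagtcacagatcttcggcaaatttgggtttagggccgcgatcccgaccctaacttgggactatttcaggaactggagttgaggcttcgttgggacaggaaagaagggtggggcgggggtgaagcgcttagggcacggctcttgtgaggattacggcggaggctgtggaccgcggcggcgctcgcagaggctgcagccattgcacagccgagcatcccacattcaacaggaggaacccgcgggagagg
EPHB1: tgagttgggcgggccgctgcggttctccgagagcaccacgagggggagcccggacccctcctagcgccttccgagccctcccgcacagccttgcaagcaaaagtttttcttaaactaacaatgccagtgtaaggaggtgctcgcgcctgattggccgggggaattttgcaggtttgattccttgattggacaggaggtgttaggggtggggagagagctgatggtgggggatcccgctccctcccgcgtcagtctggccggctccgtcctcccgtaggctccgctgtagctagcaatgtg
CEACAM1: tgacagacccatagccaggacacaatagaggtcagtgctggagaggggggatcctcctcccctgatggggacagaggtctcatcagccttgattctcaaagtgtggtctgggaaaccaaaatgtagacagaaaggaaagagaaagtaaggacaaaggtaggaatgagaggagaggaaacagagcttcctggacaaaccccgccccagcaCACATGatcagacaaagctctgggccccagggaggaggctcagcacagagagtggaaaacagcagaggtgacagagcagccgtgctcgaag
In GRCh38.p14 these lie at chr1:113979224-113979523 (plus strand) for OLFML3, chr16:77788314-77788613 (plus) for VAT1L, chr3:134795010-134795309 (plus) for EPHB1 and chr19:42528432-42528731 (minus) for CEACAM1. They hold 7, 19, 19 and 3 CpG dinucleotides, in that order, so the OLFML3 and CEACAM1 starts lie below and the VAT1L and EPHB1 starts above the median of 14 over all 35116 RefSeq promoters of this length.

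PROM1 had the most bases of any gained region. It encodes prominin-1 (CD133), a membrane protein used as a marker of stem and progenitor cells. Its alternative start at chr4:16073332-16078131 (4p15.32) had 4315 and 3785 bp under peaks in NRAS Q61K and 0 and 0 bp in GFP. Parental cells had 2858 and 2056 bp there, so both NRAS Q61K libraries exceeded both parental libraries and the GFP libraries stood below all of them.

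OLFML3, which encodes a secreted glycoprotein of the olfactomedin family, had 3182 and 2758 bp in NRAS Q61K, 0 and 0 bp in GFP, and 462 and 365 bp in parental cells (chr1:114521630-114524994, 1p13.2). STARD13 had 2811 and 2149 bp in NRAS Q61K, 0 and 0 bp in GFP, and 252 and 258 bp in parental cells (chr13:33758321-33761131). HS3ST3B1, an enzyme that adds sulfate to heparan sulfate chains, had 2312 and 2222 bp in NRAS Q61K, 0 and 0 bp in GFP, and 532 and 191 bp in parental cells (chr17:14203653-14206546). At these 3 starts the parental cells had a small peak and the NRAS Q61K libraries a promoter-sized one.

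The starts of VAT1L and BAAT had no peak in parental cells either. VAT1L had 2455 and 2494 bp in NRAS Q61K and 0 and 0 bp in GFP (chr16:77822044-77824987). BAAT, which joins bile acids to amino acids, had 2346 and 2038 bp in NRAS Q61K and 0 and 0 bp in GFP (chr9:104144345-104147042). In both, the mark was found in the 2 NRAS Q61K libraries and in none of the GFP and parental libraries.

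The 4 gained regions inside genes were placed by their overlap with the gene body. The region in PRKD3, which encodes protein kinase D3, had 2872 and 2360 bp in NRAS Q61K, 0 and 0 bp in GFP, and 1466 and 1079 bp in parental cells. The region in GRID1, a glutamate receptor subunit, had 2871 and 2332 bp in NRAS Q61K, 0 and 0 bp in GFP, and 1497 and 482 bp in parental cells. Those in IFFO2 (2437 and 1870 bp in NRAS Q61K) and ENTPD6 (2220 and 1783 bp in NRAS Q61K) were empty in the GFP and parental lists alike. The 2 with no placed gene, at 14q23.3 (chr14:65754421-65757228, 2750 and 2448 bp in NRAS Q61K) and 1p13.3 (chr1:111108573-111110970, 2285 and 1858 bp in NRAS Q61K), were also empty in GFP and parental cells. Of these 12 regions, 6 had a peak in both parental libraries and 6 had one in neither.

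The starts of SOX9, EPHB1, NRG1 and LIMS1 were also gained; SOX9 is on a gene list, and the others were picked after their values were seen. SOX9 encodes an HMG-box transcription factor of the neural crest. It had 2280 and 1590 bp in NRAS Q61K and 0 and 0 bp in GFP (chr17:70117221-70120667, 17q24.3), with none in parental cells. EPHB1, an ephrin receptor kinase, had 1517 and 1268 bp in NRAS Q61K and 0 and 0 bp in GFP. NRG1, a ligand of the ERBB receptors, had 1360 and 1065 bp in NRAS Q61K and 0 and 0 bp in GFP. LIMS1 had 1888 and 945 bp in NRAS Q61K and 0 and 0 bp in GFP. It has near-identical copies in 2q13, where 2 more gained regions passed the test on covered bases. Which copy the reads came from is therefore uncertain.

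**Figure D3:**
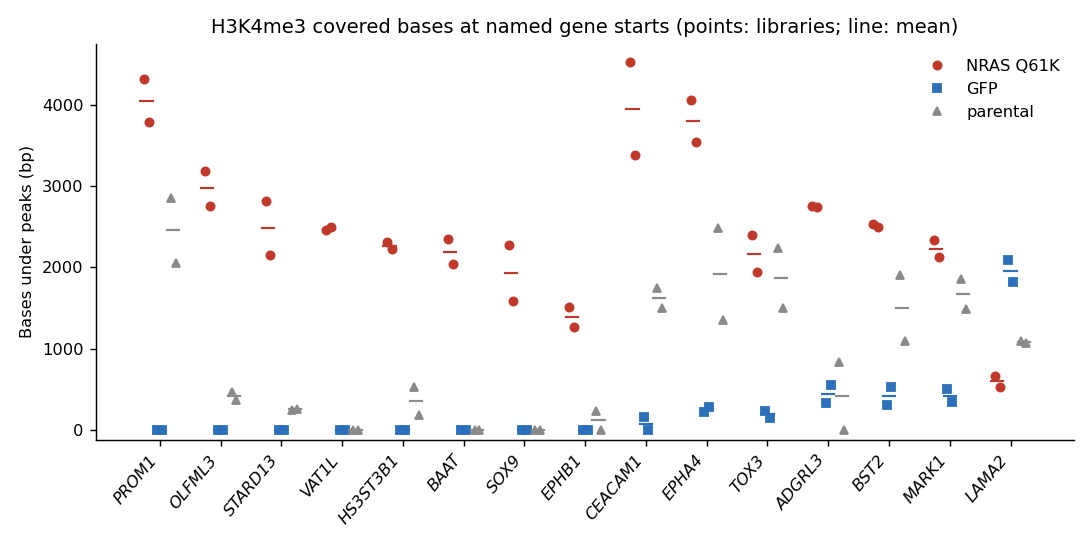
Bases under H3K4me3 peaks (bp) at 15 gene starts in NRAS Q61K (red circles), GFP (blue squares) and parental cells (grey triangles); each point is a library and each line the mean of 2. The GFP points lie at 551 bp or less except at LAMA2, where they are the highest, and the parental points lie between the groups at several genes.

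Lost regions were smaller and none of the 12 with most bases in GFP lay at a placed gene start. The largest of these lay inside CSGALNACT1, an enzyme of chondroitin sulfate synthesis (chr8:19360820-19362828), with 0 and 0 bp in NRAS Q61K against 1839 and 792 bp in GFP. A region inside MEF2C, a transcription factor of muscle and neural crest derivatives, had 0 and 0 bp in NRAS Q61K against 600 and 962 bp in GFP (chr5:88122717-88123921). Only 2 of the 12 passed the test on covered bases, at 14q11.2 and 18p11.21, and both entered it only through their GFP peaks. The one at 14q11.2 (chr14:19136628-19140500) had 0 and 0 bp in NRAS Q61K against 1267 and 1215 bp in GFP. It has the same length of 3873 bp as a lost region at 22q11.1 (0 and 0 bp in NRAS Q61K against 1197 and 1290 bp in GFP), and such repeat-rich sequence cannot be assigned to one place with certainty.

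Gained and lost regions were found in parental cells at similar shares. Of the 957 gained regions, 116 (12.1%) had a peak in both parental lists and 613 (64.1%) in neither. Of the 593 lost regions, 72 (12.1%) had a peak in both parental lists and 376 (63.4%) in neither. Over all 29957 regions the shares were 55.8% in both parental lists and 35.4% in neither. In the drug-exposed lists, which were shorter, the shares were higher for gained regions. There 118 gained (12.3%) and 6 lost regions (1.01%) had a peak in both resistant lists, beside 43.2% of all regions. In both colony lists 76 gained (7.94%) and 7 lost regions (1.18%) had one, beside 45.3% of all regions. The gained regions were also the larger and stronger ones, and the part of peak strength in this difference was not tested.

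The amount of covered sequence per region was tested with limma on log2(bases under peaks + 200), over the 21674 regions with a peak in at least 2 of the 4 libraries. At an adjusted p under 0.05, 121 regions were wider in NRAS Q61K than in GFP (0.558%) and 9 were narrower (0.0415%). At an unadjusted p under 0.05, 2709 were wider and 1681 narrower. The last region inside the threshold had an adjusted p of 0.0490 and the first outside had 0.0514. Both NRAS Q61K libraries lay above both GFP libraries in 5088 of the tested regions and below both in 5224. The counts past the threshold depended on the settings. With a pseudocount of 50 bp, without centring or with the replicate number as a block, no region passed, and with a pseudocount of 1000 bp 479 were wider and 95 narrower.

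Of the wider regions, 49 were also gained. These passed the filter only through their NRAS Q61K peaks, and their GFP values are all 0. Their p-values therefore add no support beyond their presence. The same applies to the 3 narrower regions that were lost, which passed the filter only through GFP. Another 69 wider regions had a peak in all 4 libraries outside centromeric and heterochromatic bands, so both groups have measured values there. Their log2 changes ran between 0.38 and 3.17 with a median of 1.05, and the median over all tested regions was 0.02. Where GFP values are near the 200 bp added, the size of the change still depends on that addition. GFP had 223 and 285 bp at EPHA4, 196 and 203 bp in TNFSF4 and 238 and 153 bp at TOX3.

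EPHA4 had the largest change among regions with a peak in all 4 libraries. It encodes an ephrin receptor kinase. Its start (chr2:222435389-222439448, 2q36.1) had 4060 and 3545 bp in NRAS Q61K and 223 and 285 bp in GFP (log2 change 3.17 ± 0.16 SE, limma adjusted p = 0.01512). Parental cells had 2478 and 1352 bp, so the 2 GFP libraries lay below both the NRAS Q61K and the parental libraries. A second region in the same band (chr2:222506378-222508452), named after its values were seen, had 1957 and 1456 bp in NRAS Q61K and 400 and 432 bp in GFP.

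CEACAM1, a cell adhesion molecule of the immunoglobulin family, is named after its values were seen because 1 short GFP peak kept it from being gained. It had 4519 and 3381 bp in NRAS Q61K and 160 and 0 bp in GFP (chr19:43028685-43033508, limma adjusted p = 0.02065). No fold is given, since its size would rest on the 200 bp added to each value. Parental cells had 1747 and 1495 bp. Its promoter, printed above, holds the M-box match.

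Among the other starts of this kind were TOX3, ADGRL3, BST2 and MARK1. TOX3, an HMG-box nuclear protein, had 2392 and 1938 bp in NRAS Q61K against 238 and 153 bp in GFP (log2 change 2.61 ± 0.21 SE, limma adjusted p = 0.02213). ADGRL3, an adhesion receptor of the latrophilin family, had 2758 and 2745 bp in NRAS Q61K against 328 and 551 bp in GFP (log2 change 2.25). BST2 (tetherin), an interferon-induced membrane protein, had 2527 and 2501 bp in NRAS Q61K against 312 and 530 bp in GFP (log2 change 2.18). In each of these both NRAS Q61K values lay above both GFP values, as in 5088 of the 21674 tested regions. MARK1, a kinase that regulates microtubule binding proteins, had 2336 and 2127 bp in NRAS Q61K against 499 and 348 bp in GFP (log2 change 2.00). Parental TOX3, with 2241 and 1501 bp, lay close to NRAS Q61K, and parental MARK1, with 1852 and 1487 bp, and BST2, with 1905 and 1098 bp, lay between the groups. Parental ADGRL3 had 839 and 0 bp, on either side of the GFP values.

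The other 5 named regions lay inside genes or in bands with no placed gene. The region in TNFSF4, the ligand of the T cell receptor OX40, had 2749 and 2337 bp in NRAS Q61K against 196 and 203 bp in GFP. The region in NEDD4L, a ubiquitin ligase, had 3213 and 2730 bp in NRAS Q61K against 232 and 480 bp in GFP. The region in VPS53, a part of a vesicle tethering complex, had 2519 and 2299 bp in NRAS Q61K against 288 and 558 bp in GFP. These 3 and the regions at 5p15.31 and 14q13.2 had log2 changes of 2.12 to 2.80. In 7 of the 10 named regions the parental mean lay between the NRAS Q61K and GFP means, and in 3 it lay below GFP. Of the 17026 regions with a peak in all 4 libraries, it lay between in 5001 and below both in 10239.

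**Figure D4:**
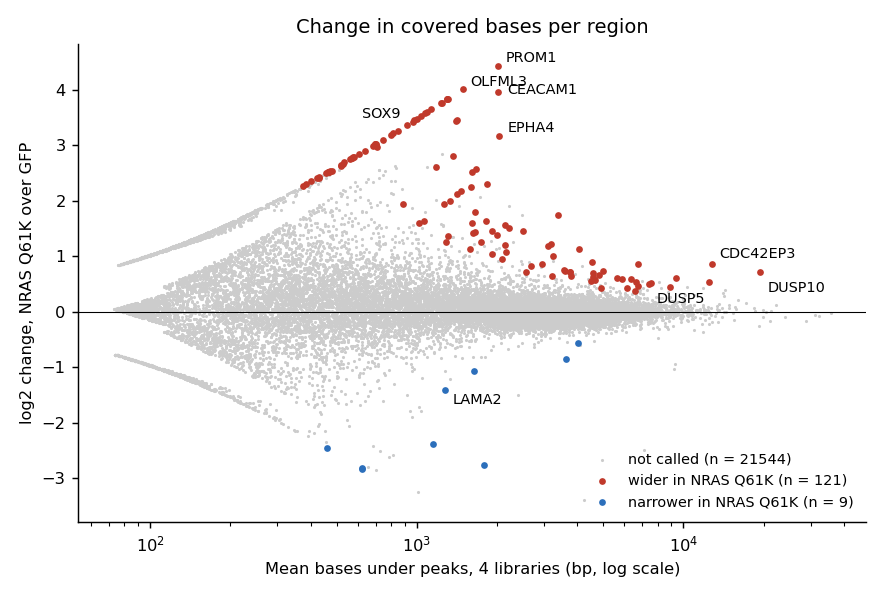
Log2 change of covered bases (NRAS Q61K over GFP, limma) against mean bases under peaks in the 4 libraries (bp, log axis), with 121 wider regions in red, 9 narrower regions in blue and the other tested regions in grey. The upper edge of points is formed by regions with no GFP peak, whose change depends on the 200 bp added to each value; called regions reach down to a log2 change of 0.38 among broad domains such as those at DUSP10 and CDC42EP3.

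Some domains that were present in both groups covered more bases in NRAS Q61K, and the 4 given here were picked from the wider regions after their values were seen. DUSP10, a phosphatase of the stress kinases p38 and JNK, had a domain of 25401 and 22629 bp in NRAS Q61K against 15892 and 13653 bp in GFP (chr1:221885964-221918134, log2 change 0.72 ± 0.07 SE, limma adjusted p = 0.03231). Parental cells had 12435 and 11484 bp, below both GFP values. CDC42EP3, an effector of the GTPase CDC42, had 16400 and 16587 bp in NRAS Q61K against 9061 and 9238 bp in GFP (chr2:37881385-37901230, log2 change 0.86 ± 0.06 SE, limma adjusted p = 0.01653). Parental CDC42EP3 had 9230 and 8429 bp, near to GFP. QPCT, an enzyme that cyclises N-terminal glutamine, lies in the same band 2p22.2 as CDC42EP3 and PRKD3, and had 7995 and 7754 bp in NRAS Q61K against 5239 and 5650 bp in GFP. Thus 3 regions of that band were wider, beside 121 wider (0.558%) and 9 narrower of the 21674 tested regions. The PRKD3 region had no GFP peak and entered the test only through NRAS Q61K. BCL2L1, which encodes the survival protein BCL-XL, had 8849 and 8553 bp in NRAS Q61K against 5120 and 4535 bp in GFP (log2 change 0.85). Parental QPCT, with 7728 and 6840 bp, and parental BCL2L1, with 6216 and 5808 bp, lay between the groups.

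The narrower regions with a peak in all 4 libraries numbered 4 outside centromeric and heterochromatic bands. LAMA2, a laminin chain of basement membranes, had 669 and 531 bp in NRAS Q61K against 2091 and 1819 bp in GFP (chr6:129204266-129206816, log2 change −1.41 ± 0.16 SE, limma adjusted p = 0.03873), and parental cells had 1089 and 1071 bp. A region inside TNS3, a protein that links integrins to actin, had 2758 and 2259 bp in NRAS Q61K against 4793 and 4719 bp in GFP (log2 change −0.85). A region inside LHFPL3 had 3348 and 3028 bp in NRAS Q61K against 5134 and 4603 bp in GFP (log2 change −0.56). A second region inside LHFPL3 (chr7:104489146-104493372), named after its values were seen, went the other way, with 2797 and 2639 bp in NRAS Q61K against 0 and 178 bp in GFP, and passed the test as wider. The region at 2q33.1 (chr2:200472786-200475528) had 996 and 963 bp in NRAS Q61K against 2363 and 2246 bp in GFP (log2 change −1.06). In the TNS3, narrower LHFPL3 and 2q33.1 regions the parental libraries lay nearer to GFP, with 4546 and 4173, 4621 and 4770, and 2051 and 2056 bp.

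The 5 widest domains with a peak in all 4 libraries did not pass the test. The widest, at 1q42.13 (chr1:228744050-228783184), had 35791 and 34228 bp in NRAS Q61K against 36014 and 36684 bp in GFP (log2 change −0.03 ± 0.05 SE, limma adjusted p = 0.8186). The others lay at 1q21.2, 1q23.3, 10q11.21 and 3q25.1, with log2 changes between −0.17 and 0.13. The lowest adjusted p among the 5 was 0.2804.

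The targets and brakes of ERK were marked in both groups, and 2 of them changed. Of 20 genes in this list, 19 had a region at the start, all of which were tested; 2 were wider, beside 0.558% of all tested regions, none was narrower, gained or lost, and the median log2 change was 0.06 beside 0.02 over all tested regions. EPHA4, described above, was the larger change. DUSP5, a nuclear phosphatase that inactivates ERK, had 9097 and 8654 bp in NRAS Q61K against 6282 and 6244 bp in GFP (chr10:112254640-112264893, log2 change 0.51 ± 0.05 SE, limma adjusted p = 0.02448). Both its NRAS Q61K values lay above both GFP values, as in 5088 of the 21674 tested regions, and parental cells had 6084 and 5909 bp.

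The other ERK genes did not pass the test. DUSP6, the cytoplasmic ERK phosphatase, had 11418 and 11162 bp in NRAS Q61K against 11180 and 11343 bp in GFP (log2 change 0.03). SPRY4, an inhibitor of receptor signalling to RAS, had 16190 and 15664 bp in NRAS Q61K against 15508 and 15180 bp in GFP. EGR1, an immediate early transcription factor, had 5839 and 5242 bp in NRAS Q61K against 4221 and 4519 bp in GFP (log2 change 0.35 ± 0.06 SE, limma adjusted p = 0.09237). IER3, another early response gene, had 7780 and 7657 bp in NRAS Q61K against 5526 and 6431 bp in GFP (adjusted p = 0.1237, limma). In EGR1 and IER3 both NRAS Q61K values were above both GFP values, which was the case in 5088 of the 21674 tested regions, and CXCL8 had no region at its start. In the whole list 16 log2 changes lay above 0 and 3 below, at EPHA2 (−0.49), FOSL1 (−0.13) and CCND1 (−0.05). FOSL1 had 10531 and 9909 bp in NRAS Q61K against 11891 and 10983 bp in GFP (adjusted p = 0.2164, limma). Both its NRAS Q61K values lay below both GFP values, as in 5224 of the 21674 tested regions.

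None of the 15 genes of the RAS to ERK cascade passed the test, where 0.558% of all tested regions were wider and 0.0415% narrower. All had a region, with log2 changes between −0.19 and 0.28 and a median of −0.04. BRAF, the kinase mutated in this line, had 3549 and 3773 bp in NRAS Q61K against 4374 and 4022 bp in GFP (log2 change −0.16 ± 0.08 SE, limma adjusted p = 0.3516).

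Among 13 genes for CDK inhibitors and senescence, 9 had a region and none passed the test (median log2 change 0.04). IGFBP5, a binding protein of insulin-like growth factors, had the largest change in the list, with 3911 and 2720 bp in NRAS Q61K against 1040 and 1543 bp in GFP (log2 change 1.26 ± 0.22 SE, limma adjusted p = 0.08518). It had no peak in parental cells. CDKN2A, which encodes p16 and ARF, had 11866 and 11407 bp in NRAS Q61K against 11800 and 11295 bp in GFP at its first start. IL6, IL1B and IGFBP3 were among those with no region at the start.

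Of 11 melanocyte lineage genes 7 had a region and none passed the test (median log2 change 0.10). PMEL, a pigment granule protein, had 15587 and 15197 bp in NRAS Q61K against 14470 and 14324 bp in GFP (log2 change 0.12). TYR, the rate-limiting enzyme of melanin synthesis, had 15684 and 15250 bp in NRAS Q61K against 12887 and 12859 bp in GFP (log2 change 0.29 ± 0.05 SE, limma adjusted p = 0.08028). SOX10, a lineage factor of melanocytes, had 12323 and 11875 bp in NRAS Q61K against 11782 and 11412 bp in GFP, so these starts were broad in both groups. MITF was the only member below 0, with log2 changes of −0.08 and −0.01 at its 2 starts. TYRP1, DCT, TRPM1 and KIT had no region at the start. Of 8 markers of other cells (keratinocytes, fibroblasts, leukocytes and epithelium), only COL1A1 had a region, with 1262 and 840 bp in NRAS Q61K against 1006 and 1052 bp in GFP, and the other 7 were at 0.

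The list of dedifferentiated state and receptor kinase genes held 17 genes, of which 14 had a region and 2 were both gained and wider, PROM1 and SOX9, beside 3.19% gained among all regions and 0.558% wider among those tested (median log2 change 0.16). PROM1 and SOX9 entered the test only through their NRAS Q61K peaks, and the other 12 did not pass it. EGFR had 1464 and 1534 bp in NRAS Q61K against 961 and 560 bp in GFP (log2 change 0.88 ± 0.23 SE, limma adjusted p = 0.1516) and 1600 and 1670 bp in parental cells. NGFR, a marker of a neural crest state, had 1083 and 1240 bp in NRAS Q61K against 1209 and 900 bp in GFP. ERBB3 (log2 change −0.06) and ZEB2 (−0.09) were the members below 0. AXL, PDGFRB and ALDH1A3 had no region at the start.

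**Figure D5:**
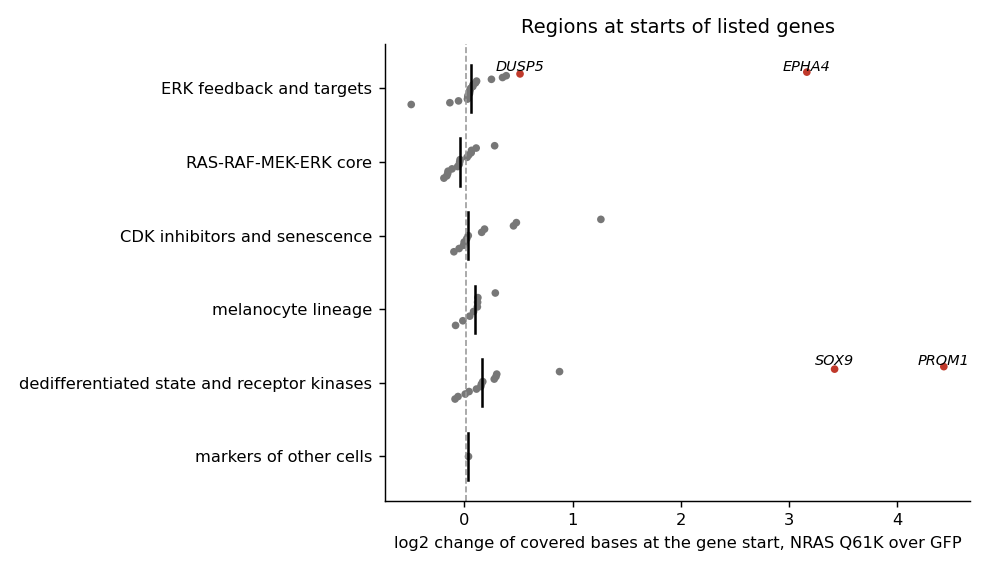
Log2 change of covered bases at the start of each listed gene (points), NRAS Q61K over GFP, by list; red points passed the limma threshold, the black line is the median of the list, and the dashed line is the median over all tested regions. Only EPHA4, DUSP5, SOX9 and PROM1 passed, and the changes drawn for SOX9 and PROM1 depend on the 200 bp added because GFP has no peak there.

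The promoters of the changed genes were searched for 4 motifs on both strands. Of 62 genes at the start of a gained or wider region, 43 had a RefSeq promoter and 28 had a single one. Among these 28, the ETS motif CCGGAAGT, bound by a family of factors that ERK activates, was in 0, against 4.14% of all 35116 promoters. The AP-1 motif TGANTCA was in 0, against 7.71%. The E-box CACGTG was in 1, HS3ST3A1, against 7.26%, and the M-box CATGTG in 1, CEACAM1, against 11.1%. The 28 promoters had a median of 21 CpG dinucleotides, against 14 over all promoters, and ran between 1 in FCRLA and 55 in AUTS2. These matches describe the letters of a 300 base window only.

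Centromeric sequence was more common among lost than gained regions. Centromeric bands held 6 gained (0.627%) and 38 lost regions (6.41%), beside 1.59% of all regions. The narrower region at 5q11.1 (chr5:49433320-49441491) had 253 and 323 bp in NRAS Q61K against 2420 and 4142 bp in GFP, and parental cells had 2678 and 4282 bp. The one at Xq11.1 (chrX:61716603-61721081) had 208 and 238 bp in NRAS Q61K against 1673 and 2488 bp in GFP. Reads from satellite repeats are shared among many copies, and the copy they came from is uncertain.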

How the data were processed

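The authors deposited 1 peak list per library. Per the submitters' processing notes, BWA, SAMtools, MACS2 2.1.2 and deepTools 2.5.4 were used with GRCh37 (hg19), without roles given. In these deposited lists, positions are in bases, the fold is the authors' ratio of summit over background, and the −log10 p-values and −log10 q-values belong to that summit. Peaks were called per library; no source used here gives read depth or the use of the inputs.

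Peaks within 1000 bp were merged. Bases under peaks were tested with limma 3.58.1 (R 4.3.3) on log2(bases + 200), each library centred on its median over regions present in all 4, for regions present in at least 2, with eBayes trend and Benjamini-Hochberg adjustment at 0.05. The fit was checked on simulated data. Values for groups with no peak rest on the added 200 bp, so no fold is given for them. Bands came from circlize 0.4.16. Tables were made with pandas 2.3.3 and numpy 2.4.6, and figures with matplotlib 3.10.9, in Python 3.11.15.

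No annotation of GRCh37 was used: the places of 175 genes were written by hand from knowledge of that build, many after changed regions were seen, so the share of changed regions at genes is not comparable with that of other regions. Against RefSeq (another build), all 175 lay on the same chromosome, 152 of 152 neighbour pairs had the same order, and 159 had a length within 10%. A gene start counted when a region lay within 1000 bp.

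The members, gene lists and tests were chosen with earlier results of these data known. Named regions are the 12 gained and 12 lost with most bases, the 10 wider and 10 narrower of largest change among those present in all 4 (only 4 were narrower), changed list genes and the 5 widest, outside centromeric and heterochromatic bands; others are said to be chosen later. The labels do not tell whether replicates are separate cultures, and the p-values therefore measure only the spread between these libraries, which may be technical. Alternatives covered peak strength, list length, merging, pseudocount, centring, filter, trend, the fit, the block and leaving out each library.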

Additional observations from a re-analysis of the deposited data

How the results depend on the processing

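Every setting in which any region passed gave more wider than narrower regions. Beside the 121 wider and 9 narrower regions reported, limma called 0 and 0 with a pseudocount of 50 bp, 0 and 0 without centring, 0 and 0 with the replicate block, 479 and 95 with a pseudocount of 1000 bp, 1370 and 596 in the fit of all 10 libraries, 788 and 364 without the trend, 623 and 147 without the filter, 368 and 102 over regions present in all 4, 356 and 34 at a −log10 q of at least 10, 128 and 8 with lists of equal length, and 32 and 1 when only overlapping or touching peaks were merged. The labels give same-numbered libraries only a shared number, and the correlation of their deviations was 0.03 over tested regions. With 2 libraries per group this value cannot tell whether the numbers mark a batch. At an unadjusted p under 0.05 the 3 settings with no call had 2535, 2220 and 2623 wider and 1594, 1740 and 1676 narrower regions. Leaving out 1 library gave 52 to 369 wider and 10 to 36 narrower regions, the lowest without NRAS Q61K 1 for wider, where 47 of the 121 remained, and without GFP 2 for narrower; the single library left in a group is then assumed to vary like the other group. Of the 30 named regions past the threshold, none passed in those 3 settings, with adjusted p of 0.05886 to 0.1285.

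Gained and lost regions numbered 552 and 116 at −log10 q of 10 or more, 1149 and 437 with lists of equal length, 1702 and 1849 when only touching peaks were merged, 846 and 360 when at least 200 bp had to lie under peaks, and 45 and 4 when present regions had to be strong and absent ones had no peak at all. Leaving out 1 library gave 1514 to 3357 gained and 808 to 4235 lost regions, with more lost than gained without GFP 1 (4235 against 1514) and without GFP 2 (1784 against 1529). The difference in mean peak number, NRAS Q61K minus GFP, was −4442.5 over all peaks and 71.5 at −log10 q of 10 or more. The cause of these shifts was not tested. No named region changed sign in the fits run for single regions (pseudocounts, centring, 10 libraries, block, trend and left-out libraries) where it could be fitted. A gained or lost region fails the filter without 1 of its 2 libraries. The sign of gained and lost regions was fixed beforehand, since 1 group has 0 bp there. The wider and narrower regions were picked for large changes in these same libraries, so their kept sign adds no support. Without depth per library, differences in the number of weak peaks cannot be told apart from differences in sequencing.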

Other observations

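The regions that passed the test were uneven along the genome. Chromosome 20 held 12 wider regions among 610 tested (1.97%) and chromosome 18 held 5 among 361 (1.39%), beside 0.558% over all chromosomes. The median log2 change of chromosome 20 regions present in all 4 libraries was 0.05. Some wider regions of chromosome 20, such as those in ENTPD6 and CFAP61, had 0 and 0 bp in GFP. Those entered the test only through their NRAS Q61K peaks. The 12 on chromosome 20 include BCL2L1, TRIB3 and PTPN1, a tyrosine phosphatase, which had 7958 and 7368 bp in NRAS Q61K against 5173 and 5039 bp in GFP. Parental PTPN1 had 7012 and 7386 bp, above both GFP values. The copy number of these cells was not measured here, and its part in these values was not tested. Of the 121 wider regions, 15 (12.4%) had another wider region within 500 kb, beside 5.25% of all tested regions.

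Other wider or gained starts were picked after their values were seen and are given as values. HS3ST3A1, an enzyme of heparan sulfate and the neighbour of HS3ST3B1 at 17p12, had 3775 and 2991 bp in NRAS Q61K against 993 and 1149 bp in GFP, with 1084 and 520 bp in parental cells. The pseudokinase TRIB1 had 10523 and 9892 bp in NRAS Q61K against 7569 and 7532 bp in GFP, and TRIB3 had 5868 and 5309 bp in NRAS Q61K against 3584 and 3622 bp in GFP. CCR1, a chemokine receptor, had 2665 and 2342 bp in NRAS Q61K against 591 and 828 bp in GFP, and no peak in parental cells. FCRLA had 3164 and 2922 bp in NRAS Q61K against 1080 and 1420 bp in GFP, also with no parental peak. The leukocyte markers PTPRC and CD3E had no region at their starts.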
